A study of Mus musculus with 9 samples.

Results

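Prostaglandins, thromboxane and leukotrienes are made from arachidonic acid by a small set of enzymes, and 10 genes of this set were followed in whole lung RNA of mice with ventilator-induced lung injury (VILI): Ptgs1, Ptgs2, Ptges, Ptgis, Tbxas1, Hpgd, Alox5, Alox5ap, Ltc4s and Alox15. They were chosen by name and role, with earlier results of these data known, and all 10 were found among the 27203 gene IDs of the table. Each library was made from lung of a male C57BL/6 mouse aged 6 to 8 weeks. All groups were anaesthetised with ketamine and xylazine and intubated. The 3 Control mice were not ventilated, the 3 VILI 0 hours mice were killed directly after mechanical ventilation for 4 hours with tidal volumes of 20 ml/kg, and the 3 VILI 6 hours mice were killed 6 hours after the same ventilation. The muscle relaxant pancuronium went with ventilation, so effects of ventilation and of this agent cannot be told apart. Values are FPKM, fragment numbers scaled to transcript length and to library size, so levels of different genes can be set side by side.

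Phospholipases free arachidonic acid from membranes, and the cyclooxygenases Ptgs1 (COX-1, usually constitutive) and Ptgs2 (COX-2, usually inducible) convert it to prostaglandin H2. Terminal synthases then make prostaglandin E2 (Ptges), prostacyclin (Ptgis) or thromboxane A2 (Tbxas1), and Hpgd, the enzyme that inactivates prostaglandins, is known for its high level in lung. In the other branch, Alox5 works with its helper protein Alox5ap (FLAP) to form leukotriene A4, which Ltc4s joins to glutathione to give leukotriene C4, the first of the cysteinyl leukotrienes, while Alox15 oxygenates arachidonic acid at other carbons. Leukotriene B4 draws neutrophils, prostacyclin widens lung vessels, and thromboxane A2 narrows them.

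The sequences upstream of 4 genes are given because these genes make up the 2 enzyme pairs whose balance is compared further on, the cyclooxygenases Ptgs1 and Ptgs2 and the prostaglandin E2 enzymes Ptges (synthesis) and Hpgd (inactivation). Each is the 250 bases before the RefSeq start site on GRCm38.p6, read 5′ to 3′ on the gene's strand, and capitals mark a GC box (GGGCGG or its complement). Ptgs1 lies at chr2:36230176-36230425 (plus strand), Ptgs2 at chr1:150099781-150100030 (plus strand), Ptges at chr2:30903298-30903547 (minus strand) and Hpgd at chr8:56294302-56294551 (plus strand).
Ptgs1: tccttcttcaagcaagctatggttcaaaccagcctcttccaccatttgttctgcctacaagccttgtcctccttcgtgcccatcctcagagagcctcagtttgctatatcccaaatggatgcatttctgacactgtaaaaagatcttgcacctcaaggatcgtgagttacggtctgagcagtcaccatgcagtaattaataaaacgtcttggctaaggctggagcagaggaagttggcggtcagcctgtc
Ptgs2: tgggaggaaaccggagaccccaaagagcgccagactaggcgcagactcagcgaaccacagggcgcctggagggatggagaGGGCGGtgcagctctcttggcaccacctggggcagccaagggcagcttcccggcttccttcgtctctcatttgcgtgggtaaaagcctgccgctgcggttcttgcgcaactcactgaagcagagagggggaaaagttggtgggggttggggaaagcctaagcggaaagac
Ptges: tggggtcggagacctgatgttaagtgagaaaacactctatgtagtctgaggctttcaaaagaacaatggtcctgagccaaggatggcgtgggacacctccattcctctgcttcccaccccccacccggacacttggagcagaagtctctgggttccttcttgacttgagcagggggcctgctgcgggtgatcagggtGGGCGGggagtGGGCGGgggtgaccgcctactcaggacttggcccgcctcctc
Hpgd: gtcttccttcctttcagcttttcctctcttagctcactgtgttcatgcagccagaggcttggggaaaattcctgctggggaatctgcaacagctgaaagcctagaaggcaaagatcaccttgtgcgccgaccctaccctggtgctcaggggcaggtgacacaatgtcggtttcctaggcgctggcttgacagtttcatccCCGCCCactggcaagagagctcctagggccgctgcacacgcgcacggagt
The Ptgs1 stretch had a GC content of 48.0% and no match, and those of Ptgs2, Ptges and Hpgd had a GC content of 61.6%, 59.6% and 56.8%, beside a median of 52.4% over 32851 promoters. The GC box of Ptgs2 lay 170 to 165 bases upstream, Ptges held 2 (53 to 48 and 42 to 37 bases upstream), and Hpgd had 1 on the opposite strand (50 to 45 bases upstream). Both strands were searched for 5 motifs, and the share of all promoters that held each was 32.7% for the GC box (GGGCGG), 22.8% for the TATA box (TATAA), 17.8% for the core of the cyclic AMP response element (CGTCA), 6.75% for AP-1 (TGANTCA) and 6.02% for the E-box (CACGTG). Of the 10 genes, 7 had an entry. Tbxas1 held TATAA on both strands at nearly the same bases and 1 AP-1 match, Alox5 held 1 GC box, and Ltc4s had no match.

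At VILI 0 hours 6 of the 10 genes passed the test against Control, and Ptgs1 and Alox5ap, which about doubled, changed most among those called. The count was 3 when any 1 of Control replicate 1 and VILI 0 hours replicates 2 and 3 was left out. Here "rose", "fell", "passed" and "called" mean an unadjusted P under 0.05 in limma on log2(FPKM + 0.1), the adjusted p (Benjamini-Hochberg over all genes tested) is printed beside it, and all genes with a mean of at least 0.1 FPKM were fitted together (19378). All 10 genes passed that filter. Ptgs1, Hpgd, Alox5, Alox5ap and Ltc4s rose and Ptges fell, while 16.2% of all genes tested passed (6.81% higher and 9.35% lower). After the adjustment Ptgs1 alone of the 10 stayed under 0.05, where 0.284% of all genes were. That call was lost in 13 of 18 alternatives, 7 of them leaving out 1 library (highest adjusted p = 0.216, limma, without Control replicate 1), and at transcript level the adjusted p was 0.137. Over all genes the adjusted calls were 1 higher and 0 lower with no filter, and 675 higher and 668 lower without VILI 6 hours replicate 1. Of the 10 genes, groups did not overlap for 5 that were higher and 1 that was lower, beside 33.5% of all genes (12% higher and 21.6% lower). By exact permutation the smallest two-sided p for 2 groups of 3 is 0.1, so single genes could not pass that way.

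By VILI 6 hours 3 of the 10 genes were higher than in Control, Ptgs1, Alox5 and Alox5ap, and none was lower. The background was 20.4% of all genes (8.17% higher and 12.2% lower). Alox5ap stayed under 0.05 after adjustment in limma, against 0.702% of all genes. It lost that call in 8 of 18 alternatives, among them those leaving out any 1 Control library or VILI 6 hours replicate 2 or 3 (highest adjusted p = 0.143, limma), and the main transcript of Alox5ap had an adjusted p of 0.0746. The number of all genes called after adjustment also hung on single libraries. It was 1579 higher and 2933 lower without VILI 6 hours replicate 1, and 0 without Control replicate 2. Only Ptgs1 and Alox5ap had groups that did not overlap, both higher, where 24.6% of all genes did not overlap (9.64% higher and 15% lower). Without VILI 6 hours replicate 1, which stands apart in several values given below, 2 of the 10 passed. In that fit 2486 of 19378 genes passed as higher and 5040 as lower. The count of members was also 2 without Control replicate 2, and it was 4 without VILI 6 hours replicate 2.

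Directly between the 2 time points, Ptges rose and Hpgd fell from VILI 0 hours to VILI 6 hours. This was 2 of 10 genes, where 10% of all genes passed (5.06% higher and 4.94% lower). No gene of the table was called in limma after adjustment (0.00%), although 1938 genes had an unadjusted P under 0.05. This rested on VILI 6 hours replicate 1, without which 181 genes were called higher and 175 lower after adjustment. Hpgd was the 1 gene without overlap (lower), beside 12.5% of all genes (6.25% higher and 6.28% lower). Both comparisons with Control use the same 3 Control libraries. The median log2 fold change of the 10 genes was 0.49, 0.24 and 0.03 in the 3 comparisons in the order given, and that of all genes tested was -0.07, -0.09 and -0.02. Centring each library on its median moved fold changes up by 0.11 at VILI 0 hours, 0.13 at VILI 6 hours and 0.01 between the time points. The share of higher calls among all genes, 42.1%, 40.1% and 50.6%, became 61.2%, 58.1% and 49.2% with that centring.

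**Figure D1:**
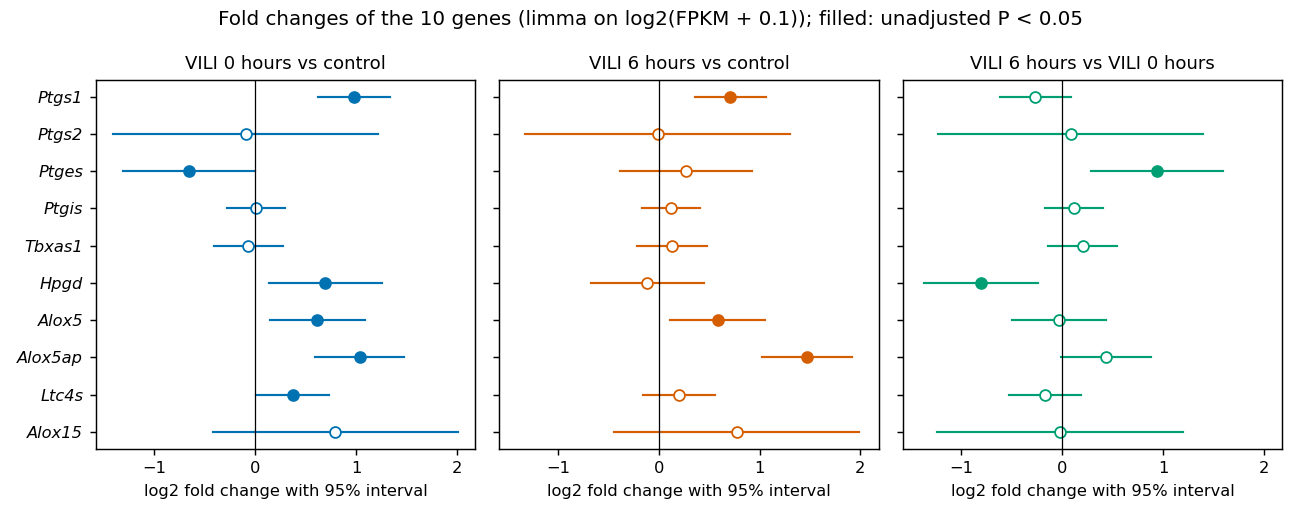
Log2 fold changes of the 10 genes (x axis, limma on log2(FPKM + 0.1)) with 95% intervals as lines, 1 panel per comparison and 3 libraries per group; filled points have an unadjusted P under 0.05. Ptgs1 and Alox5ap lie to the right of 0 in both comparisons with Control, and Ptges and Hpgd lie on opposite sides of 0 between the time points.

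Ptgs1 about doubled directly after ventilation and remained higher 6 hours later. Its FPKM was 23.0, 24.2 and 21.9 in Control, 46.1, 39.7 and 51.2 in VILI 0 hours and 29.3, 41.9 and 43.7 in VILI 6 hours. Every ventilated library lay above every Control library. The log2 fold change was 0.98 at VILI 0 hours (SE 0.158, adjusted p = 0.0471, limma) and 0.71 at VILI 6 hours (adjusted p = 0.0733). Leaving out each library in turn gave 0.89 to 1.07 and 0.60 to 0.89, and every one of these passed the unadjusted threshold. The 2 time points overlapped, with VILI 6 hours replicate 1 the lowest ventilated library, and their difference was -0.27 (95% interval -0.62 to 0.09).

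Ptgs2 varied more between mice of a group than between groups. Its FPKM was 3.67, 5.77 and 4.47 in Control, 3.81, 2.79 and 7.22 in VILI 0 hours and 5.13, 1.64 and 10.7 in VILI 6 hours. The lowest and the highest values of all 9 libraries were both in VILI 6 hours. Differences from Control were -0.10 at VILI 0 hours (95% interval -1.41 to 1.22) and -0.01 at VILI 6 hours (-1.33 to 1.30) on the log2 scale. These intervals hold both a doubling and a halving, so neither was detectable at this spread. Without VILI 6 hours replicate 2 the second value was 0.69 and without replicate 3 it was -0.63, so its sign rested on single libraries.

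**Figure D2:**
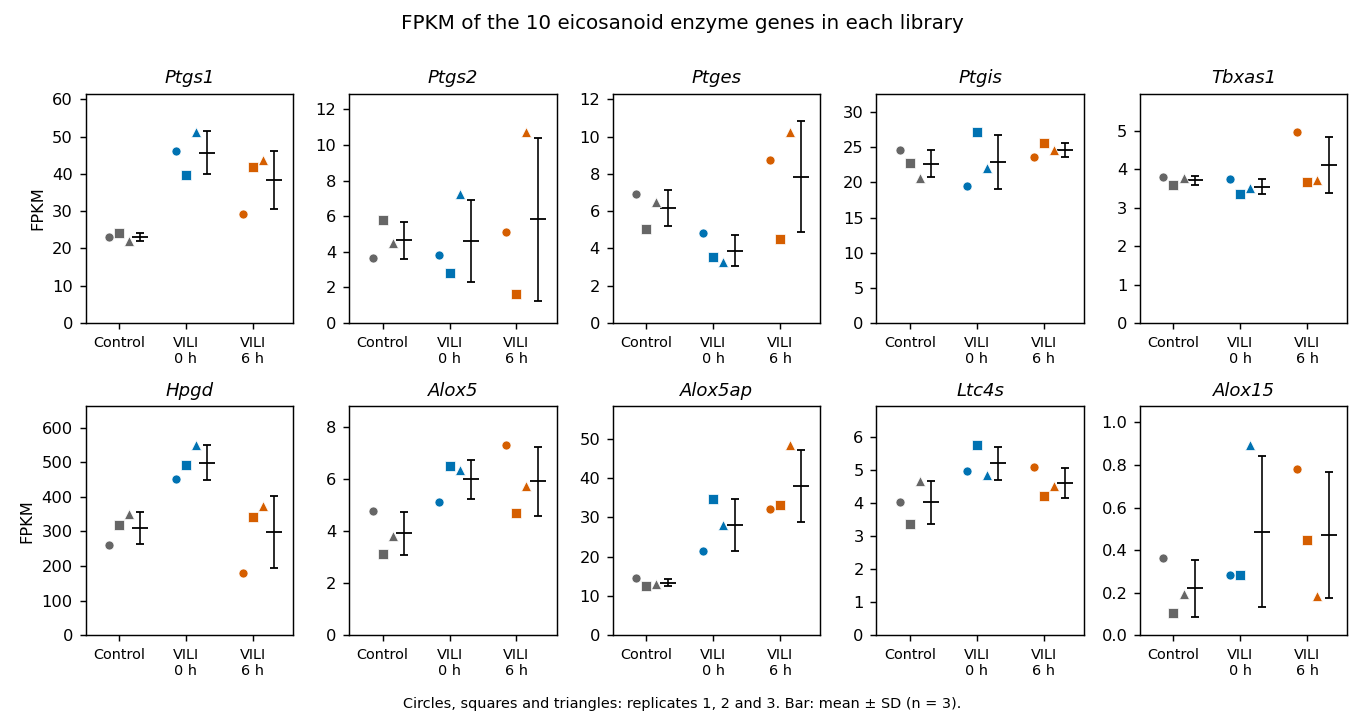
FPKM (y axes, each from 0 with its own scale) of the 10 genes in the 3 Control, 3 VILI 0 hours and 3 VILI 6 hours libraries, with symbols for replicates and bars for mean ± SD (n = 3). Ptgs1 and Alox5ap in all ventilated libraries lie above Control, Ptgs2 spreads most in VILI 6 hours, and Hpgd is highest in VILI 0 hours.

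Among the terminal synthases, Ptges alone passed a test, and it was lower after ventilation and higher again 6 hours later. Ptges, the inducible synthase of prostaglandin E2, stood at 6.91, 5.06 and 6.52 FPKM in Control, 4.84, 3.53 and 3.27 in VILI 0 hours and 8.77, 4.52 and 10.2 in VILI 6 hours. All VILI 0 hours libraries were below all Control libraries, and VILI 6 hours had 1 library below the Control range and 2 above it. It fell by 0.66 on the log2 scale at VILI 0 hours (SE 0.291, adjusted p = 0.305, limma). That call was lost in 10 of 18 alternatives, median-centred libraries among them (-0.55), and when any 1 of Control replicates 1 and 3 and VILI 0 hours replicates 2 and 3 was left out (-0.62 to -0.55). From VILI 0 hours to VILI 6 hours it rose by 0.94 (SE 0.291, adjusted p = 0.348), with a range of 0.71 to 1.29 when each library was left out, and passed each time. Against Control the VILI 6 hours value was 0.27 (95% interval -0.38 to 0.93), which did not pass, and 0.62 without VILI 6 hours replicate 2, which did.

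Ptgis and Tbxas1, the synthases of prostacyclin and thromboxane A2, passed no test. Ptgis, an endothelial and smooth muscle enzyme, was 24.6, 22.8 and 20.7 FPKM in Control, 19.6, 27.1 and 22.1 in VILI 0 hours and 23.7, 25.6 and 24.7 in VILI 6 hours. Its groups overlapped, and the differences from Control were 0.01 (95% interval -0.28 to 0.30) and 0.12 (-0.17 to 0.41) on the log2 scale. Tbxas1, known from platelets and macrophages, was 3.79, 3.58 and 3.78 FPKM in Control, 3.75, 3.37 and 3.51 in VILI 0 hours and 4.97, 3.68 and 3.73 in VILI 6 hours. Only VILI 6 hours replicate 1 stood above the rest. Its differences from Control were -0.07 (-0.41 to 0.28) and 0.13 (-0.21 to 0.48), so a change of 1.5-fold was outside the intervals of both genes. The summed FPKM of 5 platelet markers had a range of 29.7–36.6 in Control, of 32.6–43.1 in VILI 0 hours and of 27.1–58.7 in VILI 6 hours, and none of the 5 was called against Control.

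Hpgd, the most abundant of the 10, rose directly after ventilation and overlapped Control 6 hours later. It measured 259, 319 and 349 FPKM in Control, 452, 493 and 551 in VILI 0 hours and 179, 341 and 373 in VILI 6 hours. VILI 0 hours lay above both other groups without overlap, and the VILI 6 hours libraries ran from below the Control range to above it. The log2 fold change against Control was 0.70 at VILI 0 hours (SE 0.251, adjusted p = 0.219, limma), and it missed the threshold without Control replicate 1 (0.57) or without VILI 0 hours replicate 3 (0.62). From VILI 0 hours to VILI 6 hours Hpgd fell by 0.81 (SE 0.251, adjusted p = 0.348). VILI 6 hours replicate 1 was the lowest of all libraries, and without it the fall was smaller, at -0.48, and still passed. The VILI 6 hours difference from Control was -0.11 (95% interval -0.68 to 0.45), and 0.22 without that library, passing in neither fit.

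The leukotriene genes Alox5, Alox5ap and Ltc4s all rose at VILI 0 hours, and Alox5ap and Alox5 also did at VILI 6 hours. Alox5ap, which hands arachidonic acid to Alox5, was 14.4, 12.6 and 13.1 FPKM in Control, 21.5, 34.7 and 28.0 in VILI 0 hours and 32.2, 33.1 and 48.5 in VILI 6 hours. All ventilated libraries exceeded all Control libraries. It rose by 1.03 on the log2 scale at VILI 0 hours (SE 0.198, adjusted p = 0.0661, limma) and by 1.47 at VILI 6 hours (adjusted p = 0.0217), with leave-one-out ranges of 0.87 to 1.21 and 1.28 to 1.57. Between the time points the difference was 0.43 (95% interval -0.01 to 0.88) and did not pass. With VILI 0 hours replicate 2 left out it passed (0.60), as it did with VILI 6 hours replicate 1 left out (0.54).

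Alox5, the 5-lipoxygenase itself, was 4.78, 3.12 and 3.82 FPKM in Control, 5.13, 6.49 and 6.35 in VILI 0 hours and 7.32, 4.69 and 5.74 in VILI 6 hours. VILI 0 hours lay above Control, and VILI 6 hours overlapped it by 1 library. It rose by 0.62 (SE 0.209, adjusted p = 0.199, limma) at VILI 0 hours and by 0.58 (adjusted p = 0.175) at VILI 6 hours. Both calls were lost without Control replicate 2 (0.47 and 0.44), the first also without VILI 0 hours replicate 2 (0.56) and the second without VILI 6 hours replicate 1 (0.42). Ltc4s was 4.03, 3.37 and 4.68 FPKM in Control, 4.98, 5.78 and 4.85 in VILI 0 hours and 5.09, 4.22 and 4.52 in VILI 6 hours. The VILI 0 hours libraries were just above Control, a rise of 0.37 (adjusted p = 0.293, limma), and VILI 6 hours overlapped Control (0.20, 95% interval -0.16 to 0.56). The Ltc4s call at VILI 0 hours was lost with the replicate number as a block (0.37), with the most abundant transcript alone (0.27), and without any 1 of 6 libraries (0.25 to 0.42).

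Among markers of leukocytes, those of neutrophils rose at both time points. Summed FPKM of 7 neutrophil markers (S100a8, S100a9, Csf3r, Cxcr2, Retnlg, Mmp8, Mmp9) lay between 48.5 and 56.8 in Control, between 560 and 1022 in VILI 0 hours, and from 467 up to 1935 in VILI 6 hours, and 7 of 7 rose in both comparisons with Control. The sums of replicates 1, 2 and 3 were 560, 1022 and 846 in VILI 0 hours and 467, 991 and 1935 in VILI 6 hours. Libraries ranked by this sum in the same order as by Alox5ap in both ventilated groups and as by Alox5 in VILI 0 hours, but not as by Alox5 in VILI 6 hours or by Ltc4s in either. For 5 alveolar macrophage markers the sum was 163 to 220, 250 to 347 and 178 to 566 in the same order. Of these 2 of 5 rose at VILI 0 hours and 1 of 5 at VILI 6 hours. Chil3 made up most of the highest sum (528 of 566 in VILI 6 hours replicate 1). In that library Siglecf (3.62) and Pparg (6.12) were also the highest of their group, Marco (4.98) was in the middle and Mrc1 (22.9) was lowest. Of all genes 6.81% were higher at VILI 0 hours and 8.17% at VILI 6 hours, both against Control. Of 6 mast cell markers 5 were below 1 FPKM in every library, the remaining gene, Kit, set their sum (62.5 to 63.5, 40.6 to 48.4 and 34.9 to 48.2), and of 3 eosinophil markers Epx was listed at 0 throughout while the sum stayed at or below 0.627. The part of these cells in the changes of Alox5, Alox5ap and Ltc4s was not tested, and in whole tissue more cells of a type and more RNA per cell cannot be told apart.

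Alox15 was the lowest of the 10 and was close to the pseudocount of 0.1. It was 0.364, 0.104 and 0.193 FPKM in Control, 0.281, 0.281 and 0.896 in VILI 0 hours and 0.780, 0.448 and 0.187 in VILI 6 hours. Groups overlapped, with 1 or 2 high libraries after ventilation. Differences from Control were 0.80 (95% interval -0.42 to 2.01) and 0.77 (-0.45 to 1.99) on the log2(FPKM + 0.1) scale, which understates changes at this level.

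For genes well above the pseudocount of 0.1, the ratio of 2 genes within a library hardly depends on that library's scaling, and 4 ratios were compared in 3 comparisons. The log2 ratio of Ptgs2 to Ptgs1 was -2.62, -2.05 and -2.27 in Control, -3.56, -3.78 and -2.81 in VILI 0 hours and -2.49, -4.59 and -2.02 in VILI 6 hours. All VILI 0 hours libraries were below Control, by 1.07 on average, and VILI 6 hours overlapped both. That of Ptges to Hpgd was -5.21, -5.95 and -5.72 in Control, -6.51, -7.09 and -7.35 in VILI 0 hours and -4.34, -6.20 and -5.18 in VILI 6 hours. VILI 0 hours was below both other groups without overlap, by 1.36 against Control and 1.74 against VILI 6 hours. The 3 differences without overlap each had p = 0.1 in a two-sided exact permutation test, the smallest that 3 against 3 libraries allow, and an adjusted p of 0.4 over 12 tests, so the design could not pass the threshold. The other 9, all those of Ptgis to Tbxas1 and of Alox15 to Alox5 among them, had p of 0.6 or more. Alox15 is near the pseudocount, and its ratio to Alox5 at VILI 0 hours turned from 0.18 to -0.25 with a pseudocount of 1.

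**Figure D3:**
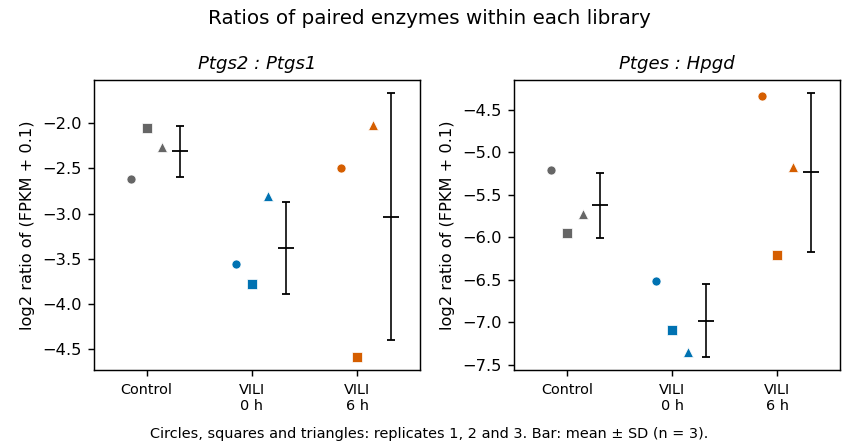
Log2 ratio of (FPKM + 0.1) within each library (y axes) for Ptgs2 to Ptgs1 and Ptges to Hpgd in the 3 groups, with symbols for replicates and bars for mean ± SD (n = 3). Ptges to Hpgd lies lowest in the 3 VILI 0 hours libraries, between -7.35 and -6.51, and Ptgs2 to Ptgs1 spreads from -4.59 to -2.02 in VILI 6 hours.

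By level, Hpgd led in every group, and its lowest library exceeded the highest library of any other member. In Control Hpgd (309 ± 45.7 FPKM, SD, n = 3) was followed by Ptgs1 (23.0 ± 1.16) and Ptgis (22.7 ± 1.95), whose ranges overlapped. Alox5ap came next (13.4 ± 0.926), apart from its neighbours on both sides. Ptges (6.16 ± 0.973), Ptgs2 (4.63 ± 1.06), Ltc4s (4.03 ± 0.657), Alox5 (3.91 ± 0.836) and Tbxas1 (3.72 ± 0.117) formed a run in which each overlapped the next, and Alox15 was last (0.220 ± 0.132). In VILI 0 hours Alox5ap (28.1 ± 6.59) passed Ptgis (22.9 ± 3.86) with overlapping ranges, and Ptges (3.88 ± 0.842) went down to eighth place. In VILI 6 hours Ptgs1 (38.3 ± 7.82) and Alox5ap (37.9 ± 9.16) overlapped and both stood above Ptgis (24.6 ± 0.961).

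For each of the 9 members with a mean of at least 1 FPKM, the protein-coding genes with the most similar profile over the 9 libraries were sought among 13069 genes, by Pearson r of log2(FPKM + 0.1). Because the 9 points share groups and libraries, r describes these samples only. Ptgs1 was most like Susd6 (0.990), Abhd15 (0.990) and Stt3b (0.985), and Alox5ap like Tgfbi (0.990), Tlr13 (0.982) and Gda (0.980). Hpgd was most like Grap (0.966), Omd (0.955) and Fibin (0.954), Ptges like Scfd2 (0.934), Tbl3 (0.925) and Wnt7b (0.921), and Alox5 like Uchl5 (0.941), Nckap1l (0.933) and Mrap (0.930). Tbxas1 was nearest to Plpp2 (0.970), Mettl1 (0.947) and Vezf1 (0.946), and Ptgis to Napsa (0.940), Prkar1b (0.932) and Rnf31 (0.925). Ptgs2 was nearest to Suco (0.904), Phf24 (0.845) and Neurl3 (0.844), and Ltc4s, with the lowest leading value, to Snrpc (0.881), Gal (0.876) and Rpl10 (0.876).

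At transcript level the 10 genes had 20 rows, of which 17 were tested. Unadjusted calls numbered 4 at VILI 0 hours, 4 at VILI 6 hours and 2 between the time points, beside 11%, 13.2% and 7.40% of 37300 rows. Those at VILI 0 hours were the rows of Ptgs1 and Hpgd and the main rows of Alox5 and Alox5ap. Ptges has 1 row with the gene's own values, and its fall was not called in the fit of rows (unadjusted P = 0.0646, limma). In 6 genes several rows were listed, and 1 row held most of the gene: 100% in Alox5, 99.4% in Ptgis, 98.8% in Alox5ap, 94.0% in Ptgs2, 87.5% in Tbxas1 and 84.0% in Ltc4s. A minor row of Ltc4s at 0.527 FPKM on average was called at VILI 6 hours (log2 1.61), with Control replicate 2 at or near 0. Exons of Ptgs1, Ptgis, Tbxas1, Alox5ap and Ltc4s overlap a gene on the other strand in GENCODE M21. Because the sources differ on the library kit, whether strand was used is not settled, and reads of these partners cannot be told apart from the members' own. The 2 partners found in the table, 1110018N20Rik at Ptgis and Gm26542 at Ltc4s, reached at most 1.52 and 0.672 FPKM.

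Of 42 other genes of the pathway, listed by role, 37 were tested. At VILI 0 hours 12 passed (8 higher, 4 lower), at VILI 6 hours 12 (5 higher, 7 lower) and between the time points 6 (5 higher, 1 lower), to be read beside 16.2%, 20.4% and 10% of all genes. Their median log2 fold changes were -0.14, -0.15 and -0.08. Without VILI 6 hours replicate 1, the counts at VILI 6 hours became 22 against Control and 17 against VILI 0 hours. Calls over all 19378 genes grew in that fit as well. They were 2486 higher and 5040 lower against Control, and 1656 higher and 2694 lower against VILI 0 hours. The count at VILI 0 hours fell to 6 without VILI 0 hours replicate 3 and to 7 without Control replicate 3, and that between the time points to 3 when VILI 0 hours replicate 2 was dropped, or replicate 3 of VILI 6 hours. For arachidonate release, 1 of 8 tested genes rose at VILI 0 hours (6.81% of all genes) and 3 fell at VILI 6 hours (12.2%). The riser was Pla2g12a, a secreted phospholipase, at 6.89, 8.88 and 7.31 FPKM in Control and 13.7, 10.3 and 13.2 in VILI 0 hours (log2 0.68, adjusted p = 0.275, limma), a call lost in 5 of 18 alternatives. Of those that fell, Pla2g4b alone reached 1 FPKM (1.42 ± 0.0889 in Control and 0.739 ± 0.672 in VILI 6 hours), and its libraries overlapped. The call of Pla2g4b was lost in 12 of 17 alternatives. None of 6 tested other synthases passed in any comparison.

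Genes of transport and breakdown were higher in 5 of 10 at VILI 0 hours and 3 of 10 at VILI 6 hours (6.81% and 8.17% of all genes), with 1 lower at VILI 6 hours. Cyp4f18, which inactivates leukotriene B4 in neutrophils, rose from 4.78, 5.08 and 4.53 FPKM in Control to 9.32, 11.3 and 11.2 in VILI 0 hours (log2 1.12, adjusted p = 0.0414, limma) and 9.83, 6.48 and 9.13 in VILI 6 hours (0.79, adjusted p = 0.0680). The adjusted p of Cyp4f18 at VILI 0 hours was 0.05 or more in 11 of 18 alternatives (up to 0.191, limma). Neither time point overlapped Control. Enzymes that trim leukotriene C4 moved the same way: Ggt5, which makes leukotriene D4, rose by 0.68 and 0.56 at the 2 time points, and the leukotriene D4 dipeptidase Dpep2 by 0.31 and 0.62 (lowest adjusted p = 0.0673, limma). The Ggt5 calls were lost with its most abundant transcript alone (0.42 and 0.30), and the Dpep2 call at VILI 0 hours was lost in 7 of 18 alternatives. Dpep1, the related kidney and lung dipeptidase, rose at VILI 0 hours from 35.1, 38.8 and 34.5 to 52.3, 66.7 and 82.8 FPKM (0.87, adjusted p = 0.125, limma). At VILI 6 hours Dpep1 was not called, at 33.7, 63.6 and 58.0 FPKM, with replicate 1 below the Control range. The exporter of prostaglandins Abcc4 rose at VILI 0 hours (0.41), the leukotriene C4 exporter Abcc1 was higher at VILI 6 hours than at VILI 0 hours (0.42), and the prostaglandin reductase Ptgr2 fell at VILI 6 hours (-0.40). Of 18 alternatives, 6 lost the call of Abcc4, 2 that of Abcc1 and 5 that of Ptgr2.

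Prostanoid receptors were lower in 4 of 8 tested at VILI 0 hours and in 2 of 8 at VILI 6 hours, and none passed as higher, where 9.35% and 12.2% of all genes were lower. The thromboxane receptor Tbxa2r was 6.14, 4.71 and 5.54 FPKM in Control, 2.94, 2.87 and 1.89 in VILI 0 hours and 3.72, 1.73 and 1.25 in VILI 6 hours. Every ventilated library was below Control, with log2 fold changes of -1.08 (adjusted p = 0.186, limma) and -1.39 (adjusted p = 0.0972). The first was no longer called without VILI 0 hours replicate 3 (-0.88). Ptgfr, the receptor of prostaglandin F2 alpha, was 5.65, 6.75 and 8.21 FPKM in Control, 3.08, 4.36 and 4.38 in VILI 0 hours and 2.41, 2.94 and 1.58 in VILI 6 hours, a fall of 0.79 (adjusted p = 0.177, limma) and then 1.56 (adjusted p = 0.0310). Its 3 groups did not overlap, and its adjusted p at VILI 6 hours was 0.05 or more in 11 of 18 alternatives (up to 0.159, limma). The prostacyclin receptor Ptgir was 2.77, 2.51 and 2.28 FPKM in Control, 1.02, 1.11 and 0.712 in VILI 0 hours and 3.44, 1.51 and 1.97 in VILI 6 hours. It fell at VILI 0 hours (-1.34, adjusted p = 0.0865, limma) and rose from there to VILI 6 hours (1.14, adjusted p = 0.280), where it overlapped Control. That rise was not called with the most abundant transcript alone (0.79). Ptger3, below 1 FPKM in all group means, also fell at VILI 0 hours (-0.91, adjusted p = 0.151, limma) and rose from there to VILI 6 hours (0.70, adjusted p = 0.440), from 0.331, 0.360 and 0.514 to 0.881, 0.544 and 0.726 FPKM, a call lost in 5 of 17 alternatives.

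Among 5 tested leukotriene and lipoxin receptors, 2 rose at both time points, where 6.81% and 8.17% of all genes were higher. Ltb4r1, the high-affinity leukotriene B4 receptor of neutrophils, was 1.19, 1.16 and 1.03 FPKM in Control, 1.27, 1.89 and 1.82 in VILI 0 hours and 3.76, 3.04 and 4.48 in VILI 6 hours. Its groups did not overlap in any comparison. It rose by 0.50 at VILI 0 hours (adjusted p = 0.293, limma), a call lost in 8 of 18 alternatives, and by 1.64 at VILI 6 hours (adjusted p = 0.0217), and between the time points by 1.14 (adjusted p = 0.155). The adjusted p at VILI 6 hours was 0.05 or more in 6 of 18 alternatives (up to 0.143, limma). The lipoxin and formyl peptide receptor Fpr2 was 3.49, 5.39 and 4.32 FPKM in Control, 5.69, 14.96 and 8.52 in VILI 0 hours and 7.27, 10.04 and 21.1 in VILI 6 hours, a rise of 1.04 (adjusted p = 0.268, limma) and 1.39 (adjusted p = 0.133). The first Fpr2 call was lost in 5 of 18 alternatives. Ltb4r1, Fpr2 and Cyp4f18 are known from neutrophils, whose marker sums are given above. Between the time points 0 of 7 neutrophil markers passed (10% of all genes), and their median log2 fold change was 0.09. The part of neutrophils in these 3 genes was not tested. The cysteinyl leukotriene receptor Cysltr2, an endothelial gene, fell at VILI 6 hours (-0.51, adjusted p = 0.244, limma) and lost that call in 12 of 18 alternatives, median-centred libraries among them (-0.38). Of 6 endothelial markers 2 fell at VILI 6 hours (12.2% of all genes), Tek (-0.55) and Tie1 (-0.58). The other 4 had positive fold changes, none of them called. Among these, Cldn5 lay above Control without overlap (153 to 205 against 133 to 141 FPKM). Summed FPKM of the 6 was 798 to 842 in Control and 713 to 931 in VILI 6 hours, and their part in the Cysltr2 value was not tested.

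**Figure D4:**
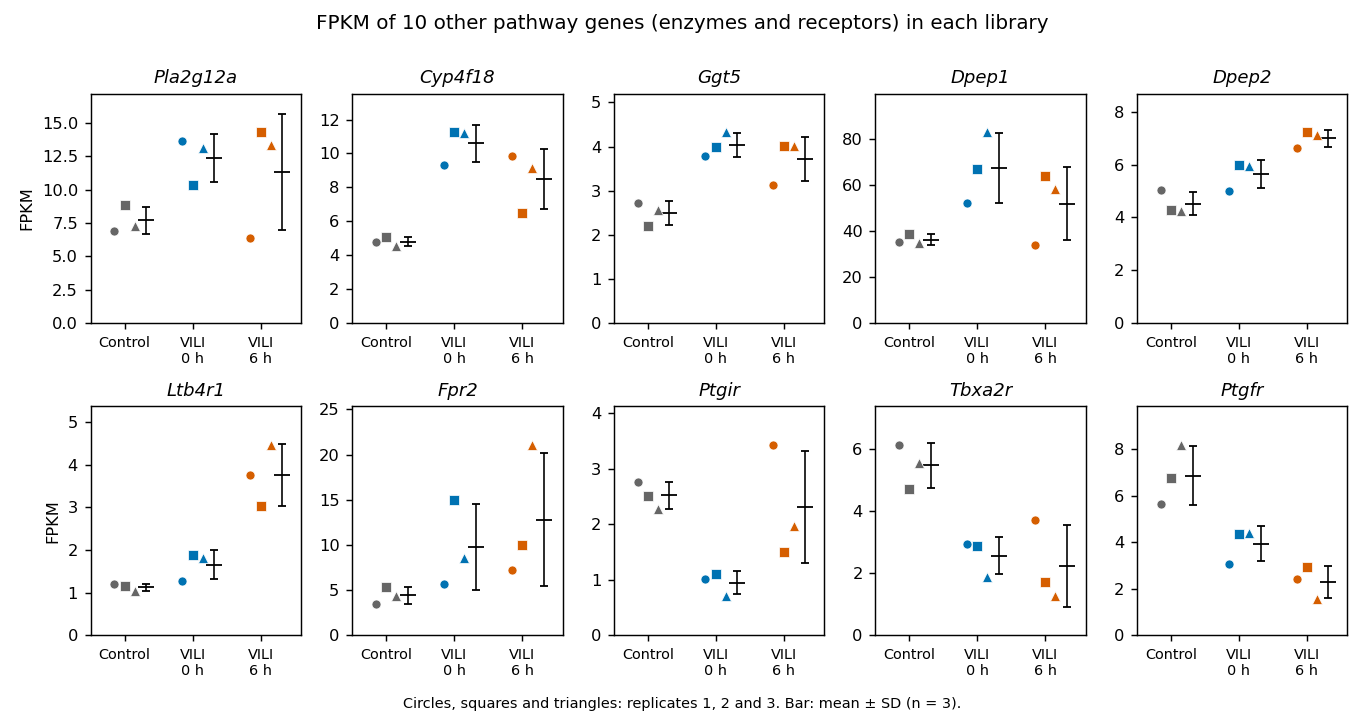
FPKM (y axes, each from 0 with its own scale) of 10 other pathway genes in the 9 libraries, with symbols for replicates and bars for mean ± SD (n = 3). Cyp4f18, Ggt5 and Ltb4r1 in all ventilated libraries lie above Control, and Tbxa2r and Ptgfr lie below it.

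Facts of the series that bear on these values are few. Column sums ran from 366360 to 388459 FPKM. Spearman correlations between libraries of a group lay at 0.915–0.918 in Control, at 0.907–0.917 in VILI 0 hours and lowest in VILI 6 hours, at 0.882–0.900. Lung markers were present in every library: the sum of 5 alveolar type 2 markers was 11894 to 14879 FPKM and that of 6 endothelial markers 713 to 945. Sums of 4 cardiac muscle markers were 112 to 239, with the highest in VILI 0 hours replicate 3, and none of the 4 was called.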

How the data were processed

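Whole lung RNA of 9 mice in 3 groups was measured, with groups as the sample records give them. The authors' files give FPKM per transcript: per the labels and the methods, the authors removed reads with adapters, poly-N or low quality, aligned them to GRCm38 with TopHat2 2.0.9 on Bowtie2 2.0.6, built transcript models (Scripture, Cufflinks) and had Cuffdiff 2.1.1 compute FPKM. The labels name a TruSeq kit and the methods an rRNA-depleted directional library, and the files do not settle which applies. FPKM holds no counts and Cuffdiff divides fragments between transcripts, so the depth behind a value is unknown from these files, and its precision was taken from the spread of 3 libraries.

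FPKM was summed over the 60108 rows per gene, and names came from GENCODE M21. Genes with a mean of at least 0.1 FPKM over the 9 libraries were tested in 1 fit of log2(FPKM + 0.1) with group as the only factor (limma 3.58.1 in R 4.3.3, lmFit and eBayes with a trend). Transcript rows were fitted likewise. A call is an unadjusted P under 0.05, which is the study's own threshold, and p-values were also adjusted by Benjamini-Hochberg over all genes or rows tested. Nothing says that same-numbered libraries share a batch or day, and p-values measure the spread between these libraries. Ratios were tested by two-sided exact permutation over 3 against 3 libraries, adjusted over 12 tests. The members and lists were chosen with earlier results of these data known. All 10 members are named, other pathway genes where a comparison had an unadjusted P under 0.05 and a group mean of at least 1 FPKM (Ptger3, below it, was added after its values were seen), and for likeness the 3 protein-coding genes with the highest r.

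Alternatives were pseudocounts of 0.01 and 1, a mean of at least 1 FPKM, no filter, median-centred libraries, the 6 libraries compared alone, a replicate block, eBayes without a trend, the row with the highest mean FPKM, and each library left out. The fit was tested on simulated data. Upstream sequences are RefSeq's for GRCm38.p6. Tables and figures were made in Python 3.11.15 (pandas 2.3.3, numpy 2.4.6, matplotlib 3.10.9, scipy 1.17.1).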

Additional observations from a re-analysis of the deposited data

Results flagged for a closer look

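The responses at VILI 0 hours and VILI 6 hours share the same Control libraries, so their difference is the direct test of VILI 6 hours against VILI 0 hours, and 7 genes passed it at an unadjusted P under 0.05 in limma with a group mean of at least 1 FPKM. Ptges was higher at VILI 6 hours by 0.94 on the log2 scale and Hpgd was lower (-0.81). Among the other pathway genes Ptgir was higher by 1.14, Ltb4r1 by 1.14, Abcc1 by 0.42 and Dpep2 by 0.31, and Ptgfr was lower (-0.77). None of the 7 was called after adjustment over all genes, the lowest adjusted p being that of Ltb4r1 (0.155). These 7 were picked for passing this test, which 10% of all genes tested did, so their count adds no support. Groups did not overlap for 6 of the 7 (12.5% of all genes), and those of Ptges did. Picking genes by this test favours groups that do not overlap, so that count adds no support either. The Dpep2 call was lost in 9 of 18 alternatives, that of Abcc1 in 2 and that of Ptgir in 1. Single outlying libraries were not tested, and the values with each library left out are given below.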

How the results depend on the processing

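Directions of Ptgs1 and Alox5ap against Control and of Ptges and Hpgd between the time points, and their side of the unadjusted threshold, held in every alternative run, but the adjusted calls of Ptgs1 and Alox5ap did not, as given above. Signs turned, without a call on either side, for Ptgs2 (VILI 0 hours 0.019 when median-centred, VILI 6 hours 0.11 when median-centred and 0.045 with a pseudocount of 1), Tbxas1 at VILI 0 hours (0.046 centred), Hpgd at VILI 6 hours (0.014 centred) and, with the most abundant row, Ptgis at VILI 0 hours (-0.013) and Ltc4s at VILI 6 hours (-0.029). Ratios turned for Ptgis to Tbxas1 (-0.011 at VILI 0 hours with that row, 0.0066 at VILI 6 hours with a pseudocount of 1) and Alox15 to Alox5 (-0.25 and -0.24 against Control with a pseudocount of 1, -0.0038 between the time points with 0.01). Transcript rows called at VILI 6 hours, 4 as reported, were 2 when only the 6 libraries compared were fitted and 3 or 4 in the other alternatives that kept all libraries. The cause was not tested.

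With each library left out, the members called ranged from 3 to 6 at VILI 0 hours (3 without Control replicate 1 or VILI 0 hours replicates 2 or 3). Other pathway genes ranged from 6 (without VILI 0 hours replicate 3, and 7 without Control replicate 3) to 15, from 8 to 22 and from 3 (when VILI 0 hours replicate 2 was dropped, or replicate 3 of VILI 6 hours) to 17 in the order of the comparisons. The last 2 were highest without VILI 6 hours replicate 1. There, of all 19378 genes, 2486 were called higher and 5040 lower against Control, and 1656 and 2694 against VILI 0 hours. Rows called ranged from 2 (without VILI 0 hours replicates 2 or 3) to 6, 2 (without Control replicate 2 or VILI 6 hours replicate 3) to 4 and 1 (without VILI 0 hours replicate 3 or VILI 6 hours replicates 1 or 3) to 3. Ranges that held both signs were, for Ptgs2, -0.47 to 0.20, -0.63 to 0.69 and -0.53 to 0.79, for Ptgis -0.12 to 0.11 (VILI 0 hours), for Hpgd -0.31 to 0.22 and Tbxas1 -0.0049 to 0.21 (both VILI 6 hours), and between the time points for Alox5 -0.20 to 0.12 and Alox15 -0.41 to 0.44. For ratios they were Ptgs2 to Ptgs1 -1.23 to 0.057 (VILI 6 hours) and -0.16 to 1.13 (between), Ptges to Hpgd -0.063 to 0.87 (VILI 6 hours), Ptgis to Tbxas1 -0.088 to 0.22, -0.11 to 0.15 and -0.23 to 0.080, and Alox15 to Alox5 -0.24 to 0.47, -0.032 to 0.60 and -0.28 to 0.43.

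Libraries of the same number deviated from their group means with correlations of -0.267 to 0.0409, and those of unlike number with -0.168 to 0.223. Deviations within a group of 3 depend on each other, so these values cannot settle whether same-numbered libraries shared a batch or day. With the replicate number as a block, members called were 5, 3 and 2 (6, 3 and 2 without it) and other pathway genes 9, 12 and 6 (12, 12 and 6 without it). Limits set by depth are not given, since the FPKM table holds no counts and read totals were not used here.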
